A study of Mus musculus with 12 samples.

Results

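The lipins and the genes around them in hepatic triglyceride assembly were examined in liver RNA-Seq from mice on calorie restriction (CR) or with free access to food (Con). The members were 10 of the 24537 genes in the deposited table, taken by symbol from a list of the pathway that was drawn up with earlier results of these data known: Lpin1, Lpin2, Lpin3, Gpam, Agpat2, Agpat3, Dgat1, Dgat2, Mogat1 and Mttp. The libraries came from the livers of 12 individually housed male C57Bl/6J mice that were 6 weeks old at the start. At day 25 and again at day 30 of the intervention there were 3 Con mice with ad libitum food and 3 CR mice given 30% less food than the Con mice ate. CR mice were fed once a day at noon, on a fortified form of the Con feed, with weekly adjustments by body weight. The feed, the time since the last meal and the restriction itself therefore cannot be told apart. According to the methods, heavy water was given to mice in both diets during the last days before sacrifice. Levels are FPKM, fragments scaled to the exon length of the gene and the depth of the library, which can be compared between genes. RNA came from bulk liver tissue, in which fewer cells of a type and less RNA per cell cannot be told apart.

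Hepatic triglyceride is built on glycerol-3-phosphate. GPAM, a mitochondrial glycerol-3-phosphate acyltransferase, adds the first fatty acid, AGPAT enzymes add the next to give phosphatidate, and the lipins remove the phosphate from phosphatidate to give diacylglycerol. DGAT1 and DGAT2 then add the last fatty acid, MOGAT1 makes diacylglycerol from monoacylglycerol by a separate route, and MTTP, the microsomal triglyceride transfer protein, loads triglyceride onto apolipoprotein B for export in VLDL. Lipin 1 is also known as a nuclear coactivator that works with PGC-1α and PPARα on genes of fatty acid oxidation, and its hepatic mRNA is known to be induced by fasting, glucagon and glucocorticoids.

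The DNA just upstream of the annotated gene starts is shown for the 3 lipins, whose levels went different ways, and for Gpam and Mttp, whose windows each share 1 of the motifs found in that of Lpin1. RefSeq windows on GRCm38.p6, the same assembly as the mm10 coordinates of the table, were matched for 8 of the 10 members, and 250 bases before the start were searched on both strands. The Lpin1 window was chr12:16610967-16611216 on the minus strand, the Lpin2 window chr17:71183728-71183977 on the plus strand, and the Lpin3 window chr2:160887918-160888167 on the plus strand. The Gpam window was chr19:55099478-55099727 and the Mttp window chr3:138143419-138143668, both on the minus strand. Each is printed 5′ to 3′ along its gene, with the motifs found in capitals:
Lpin1: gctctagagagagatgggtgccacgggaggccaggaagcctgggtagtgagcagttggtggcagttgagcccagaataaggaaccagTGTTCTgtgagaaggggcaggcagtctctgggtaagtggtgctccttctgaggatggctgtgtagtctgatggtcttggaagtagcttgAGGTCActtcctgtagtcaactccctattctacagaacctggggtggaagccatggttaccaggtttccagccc
Lpin2: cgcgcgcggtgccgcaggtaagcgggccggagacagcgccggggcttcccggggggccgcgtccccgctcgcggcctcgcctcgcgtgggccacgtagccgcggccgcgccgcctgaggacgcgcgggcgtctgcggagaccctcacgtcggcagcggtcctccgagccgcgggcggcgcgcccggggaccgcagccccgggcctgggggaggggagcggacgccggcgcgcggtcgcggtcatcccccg
Lpin3: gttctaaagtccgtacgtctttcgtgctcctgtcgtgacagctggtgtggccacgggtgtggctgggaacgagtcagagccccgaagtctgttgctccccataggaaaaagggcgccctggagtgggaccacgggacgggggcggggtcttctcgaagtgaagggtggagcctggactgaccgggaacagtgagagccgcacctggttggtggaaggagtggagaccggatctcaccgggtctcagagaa
Gpam: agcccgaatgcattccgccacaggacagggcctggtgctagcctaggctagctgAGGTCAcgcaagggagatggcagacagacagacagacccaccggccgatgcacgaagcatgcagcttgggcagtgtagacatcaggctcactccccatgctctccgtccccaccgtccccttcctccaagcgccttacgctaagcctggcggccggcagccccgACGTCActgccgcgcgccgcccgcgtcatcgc
Mttp: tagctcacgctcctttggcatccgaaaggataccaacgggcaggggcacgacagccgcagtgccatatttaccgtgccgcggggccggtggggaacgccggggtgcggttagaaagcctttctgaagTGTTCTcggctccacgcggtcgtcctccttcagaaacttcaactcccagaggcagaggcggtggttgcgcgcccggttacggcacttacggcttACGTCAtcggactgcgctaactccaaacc
The motifs searched were CACGTG (the E-box), TGACGTCA (the cAMP response element) and its shorter form TGACGT, which lies inside it, AGAACA (an arm of the glucocorticoid response element), AGGTCA (the nuclear receptor core) and TCACNCCAC (the sterol response element). In Lpin1, AGAACA was read on the reverse strand as TGTTCT from 163 to 158 bases before the start, and AGGTCA lay from 74 to 69 bases before it. In Gpam, TGACGT was read on the reverse strand as ACGTCA from 32 to 27 bases before the start, with AGGTCA from 196 to 191 bases before it. The Mttp window held ACGTCA from 29 to 24 bases and TGTTCT from 123 to 118 bases before the start. No match was found in the windows of Lpin2, Lpin3, Agpat2, Agpat3 or Mogat1. Of 32851 such windows over all genes, 16.1% hold AGAACA, 14% AGGTCA, 6.47% TGACGT, 6.02% CACGTG, 1.55% TGACGTCA and 1.05% TCACNCCAC. The annotated start used for Lpin1 lies 21196 bases upstream of the 5′ end of the transcript that was counted, and that of Mttp 12041 bases upstream, so these windows need not be the starts in use in these livers.

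The libraries held 15749182 to 23345314 reads, recovered from the steps of the FPKM values, and 78.1% to 84.3% of them lay on exons. Markers of hepatocytes were abundant in every library, with 8 of 8 present and summed levels of 50090 to 56549 FPKM (Con) and 55658 to 59814 FPKM (CR) at day 25, and of 40699 to 50058 FPKM (Con) and 58363 to 69703 FPKM (CR) at day 30. Summed levels of 8 stellate cell markers, all present, were 98.8 to 110 FPKM in Con and 119 to 141 FPKM in CR at day 25, and 82.1 to 104 FPKM in Con and 130 to 144 FPKM in CR at day 30. Of 8 Kupffer cell markers, all present, the sum was 61.5 to 103 FPKM in Con and 39.2 to 47.6 FPKM in CR at day 25, but 51.9 to 76.5 and 51.3 to 71.0 FPKM at day 30. Of 8 adipocyte markers, defining Adipoq was at 0 in 10 of 12 libraries. Con day 30 replicate 3 stood apart with 0.795 FPKM of Adipoq and 3.97 FPKM of Cfd, but not in Cidec or Plin4. The diets did not overlap in the hepatocyte sum at day 30, the stellate sum at both days or the Kupffer sum at day 25. Nor did they overlap in the lymphocyte sum at either day. It was 1.84 to 2.05 FPKM (Con) and 0.847 to 1.11 FPKM (CR) at day 25. At day 30 it was 2.14 to 3.06 and 1.09 to 1.68 FPKM. The adipocyte sum did not overlap at day 25 (9.92 to 14.4 FPKM in Con, 18.4 to 22.1 FPKM in CR). At day 30 the endothelial sum was 35.3 to 39.4 FPKM (Con) and 47.0 to 52.7 FPKM (CR). The pancreas and intestine sum was 90.0 to 96.0 and 104 to 193 FPKM at day 30. The diets overlapped in the hepatocyte sum at day 25, the Kupffer sum at day 30 and the remaining sums of the marker lists. Alb made up most of the hepatocyte sum, with 25401 to 33010 FPKM (Con) and 41047 to 51723 FPKM (CR) at day 30. Of the 8 hepatocyte genes, 7 had positive CR differences at day 30. The other, Apoa1, was 5860 to 6596 FPKM (Con) and 4807 to 5524 FPKM (CR). The part of these sums in the results was not tested.

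Lpin1 (NM_172950, chr12:16535669-16589770, minus strand, 20 exons) was far higher in CR than in Con livers at both days. At day 25 the 3 Con mice had 16.2, 48.4 and 55.9 FPKM, and the 3 CR mice had 177, 240 and 193 FPKM. At day 30 the Con mice had 14.8, 27.0 and 20.4 FPKM, and the CR mice had 171, 123 and 232 FPKM. The lowest CR mouse was above the highest Con mouse at both days, and 1 Con mouse of day 25 lay well under the other Con mice of that day, in the range of the Con mice of day 30. Means were 40.2 ± 21.1 and 203 ± 32.7 FPKM (SD, n = 3) at day 25, a ratio of 5.06, and 20.7 ± 6.10 and 175 ± 54.5 FPKM at day 30, a ratio of 8.45. On the log2(FPKM + 1) scale the difference was 2.47 (SE 0.38, adjusted p = 0.00294) at day 25 and 3.01 (SE 0.38, adjusted p = 0.000488) at day 30 in limma. Leaving out each mouse in turn gave 1.93 to 2.80 at day 25 and 2.79 to 3.24 at day 30.

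Lpin2 (NM_022882, chr17:71183978-71249818, plus strand, 20 exons), the other lipin with a high level in these livers, rose with Lpin1 by a smaller step. Its levels were 50.2, 80.2 and 71.9 FPKM in Con and 120, 109 and 128 FPKM in CR mice at day 25. At day 30 they were 56.9, 74.0 and 62.2 FPKM in Con and 127, 109 and 132 FPKM in CR mice. Con and CR mice did not overlap at either day, and the CR means were 1.77 and 1.91 times the Con means. The log2 difference was 0.83 (SE 0.16, adjusted p = 0.00933) at day 25 and 0.92 (SE 0.16, adjusted p = 0.00320) at day 30.

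Lpin3 (NM_001199118, chr2:160888168-160906000, plus strand, 20 exons) was the lowest of the lipins and moved the other way. Con mice had 1.61, 1.82 and 1.60 FPKM and CR mice 1.08, 1.49 and 1.40 FPKM at day 25. At day 30 Con mice had 1.87, 1.43 and 2.22 FPKM and CR mice 1.11, 1.42 and 1.14 FPKM. All CR mice lay under all Con mice of their day, by a small margin, on 77 to 169 reads per library. The log2 difference of −0.21 (SE 0.12) did not pass at day 25 (adjusted p = 0.302), and the fall of −0.35 (SE 0.12) passed at day 30 (adjusted p = 0.0655). Without Con day 30 replicate 3, the library with the adipocyte transcripts and the highest Lpin3, the difference at day 30 was −0.25 and did not pass (adjusted p = 0.218). The call was also lost without Con day 30 replicate 1 (adjusted p = 0.141), CR day 30 replicate 1 (adjusted p = 0.190) or CR day 30 replicate 3 (adjusted p = 0.144).

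**Figure D1:**
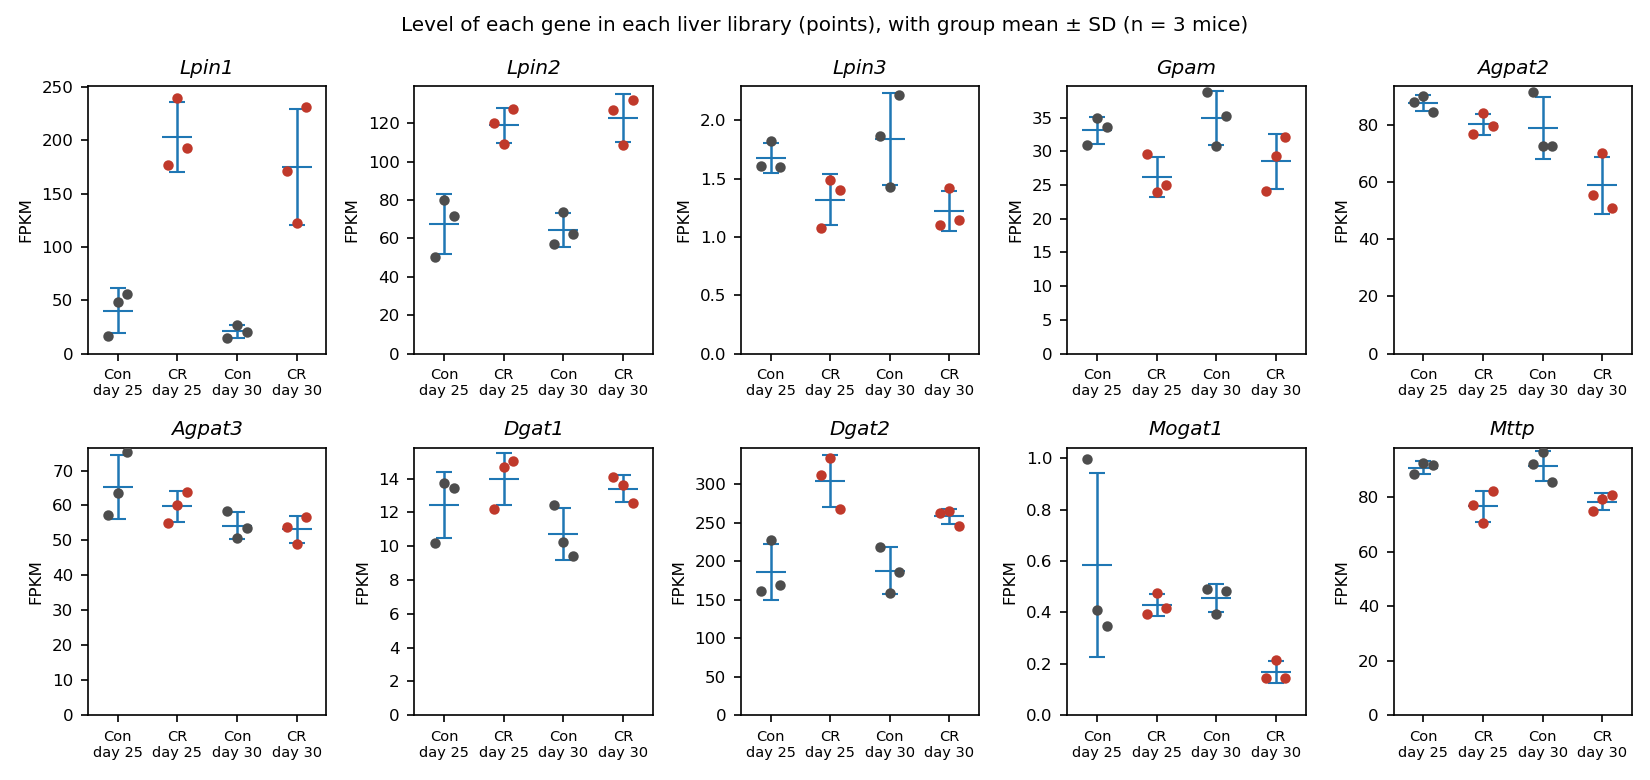
FPKM of each of the 10 genes (vertical axes from 0, in FPKM) in the 12 libraries, with Con mice in grey, CR mice in red, and group means ± SD (n = 3) in blue. Lpin1, Lpin2 and Dgat2 are higher in every CR mouse than in every Con mouse of the same day, and Lpin3, Agpat2 and Mttp are lower.

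The lipin with the most transcript differed between diets. Lpin2 made up 55.6% to 77.3% of the summed lipin FPKM in each Con mouse, and Lpin1 made up 52.7% to 68.4% of it in each CR mouse. The share of Lpin1 was 23.8% to 43.2% in Con and 59.3% to 68.4% in CR at day 25, and 20.1% to 26.4% in Con and 52.7% to 63.4% in CR at day 30. Lpin3 held at most 2.62% of the sum in any library. The ratio of Lpin1 to Lpin2 ran from 0.260 to 0.778 in Con mice and from 1.13 to 2.19 in CR mice. The sum of the 3 lipins averaged 109 ± 35.8 (Con) and 324 ± 26.4 FPKM (CR) at day 25, and 87.0 ± 14.5 (Con) and 299 ± 66.1 FPKM (CR) at day 30 (SD, n = 3).

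**Figure D2:**
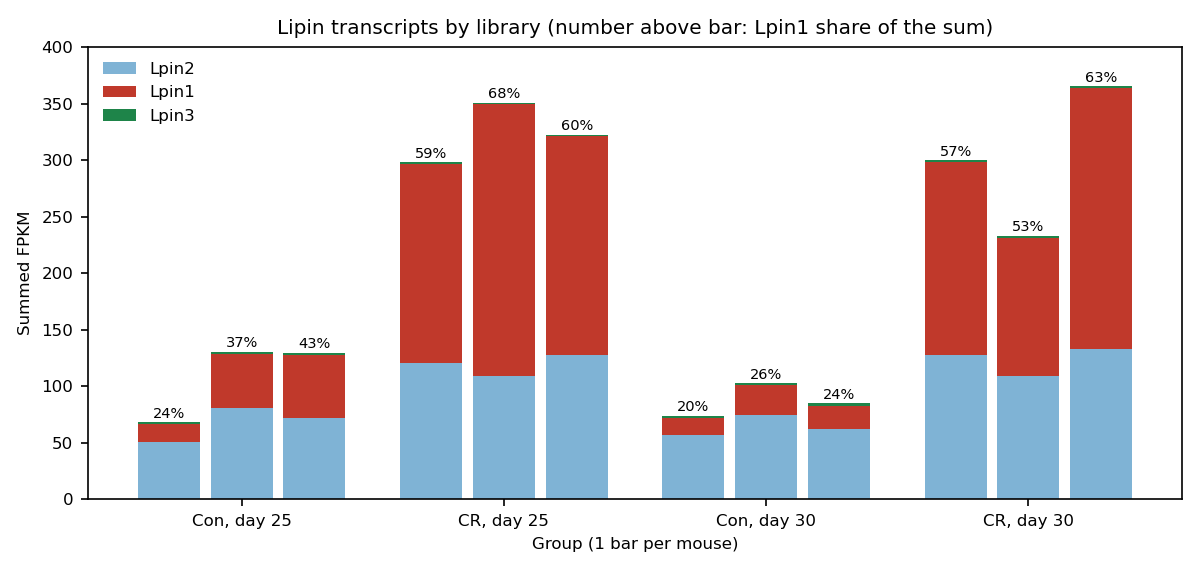
Summed FPKM of the 3 lipins (vertical axis) with 1 bar per mouse, split into Lpin2 (blue), Lpin1 (red) and Lpin3 (green). Above each bar stands the share of Lpin1 in percent, which is at most 43.2% in Con and at least 52.7% in CR mice.

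Lpin1 and Lpin2 also varied together over the libraries, though not within each group. Of the CR mice at day 25, the 1 with the most Lpin1 (240 FPKM) had the least Lpin2 (109 FPKM). Con day 25 replicate 1 was the lowest of its group in both (16.2 and 50.2 FPKM). Over the 12 libraries Pearson's r between their log2(FPKM + 1) values was 0.966, and it was 0.860 for deviations from the means of the 4 groups. Of the 10593 genes tested, those most like Lpin1 over the 12 libraries included Map2k6 (r = 0.981), Por (r = 0.972), Lpin2 and Tnfrsf1b (r = 0.962). Map2k6 encodes a MAP kinase kinase, Por the electron donor of microsomal cytochromes P450 and Tnfrsf1b a TNF receptor. These 12 libraries fall into Con and CR clusters, so that any gene with a large diet difference has a high r, and the values describe these libraries only. Among the other members r with Lpin1 ran from −0.798 for Mttp to 0.814 for Dgat2, and for deviations from the group means these were 0.176 and 0.0793.

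**Figure D3:**
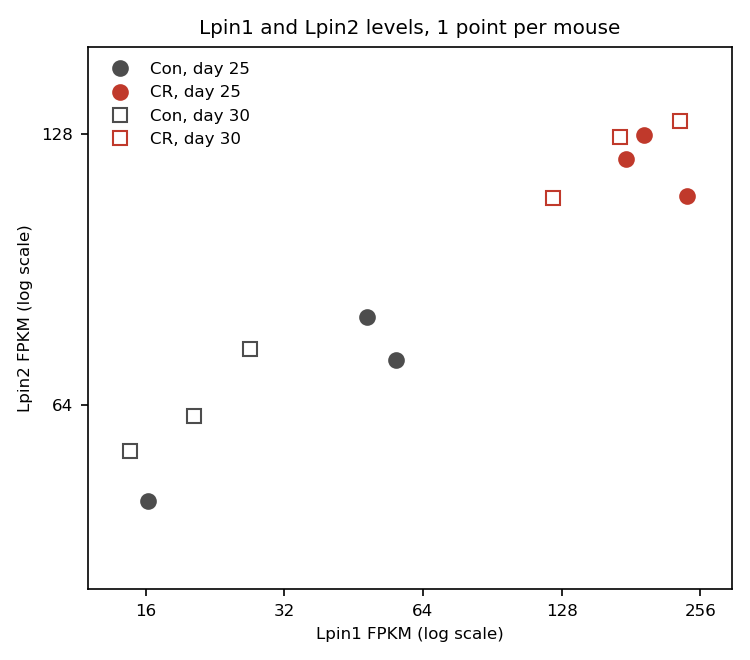
Lpin1 (horizontal axis) against Lpin2 (vertical axis), both in FPKM on log scales, with 1 point per mouse. The 6 Con mice (grey) lie at the lower left and the 6 CR mice (red) at the upper right, with no overlap on either axis.

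The 3 members that act before the lipins, Gpam, Agpat2 and Agpat3, were lower in CR mice or did not pass the test. Gpam (NM_008149, chr19:55069734-55099447, minus strand) had 30.9, 34.9 and 33.6 FPKM in Con and 29.6, 23.9 and 25.0 FPKM in CR mice at day 25. At day 30 it had 38.8, 30.8 and 35.2 FPKM in Con and 24.1, 29.4 and 32.1 FPKM in CR mice. The diets did not overlap at day 25 and overlapped at day 30. Its log2 differences of −0.33 (SE 0.13, adjusted p = 0.128) and −0.29 (SE 0.13, adjusted p = 0.144) did not pass at either day alone, whereas the difference over both days, −0.31, did (adjusted p = 0.0161).

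Agpat2 (NM_026212, chr2:26593057-26604417, minus strand), the most abundant AGPAT in the Con mice, had 88.0, 90.2 and 84.6 FPKM in Con and 76.9, 84.0 and 79.7 FPKM in CR mice at day 25. At day 30 the Con mice had 91.4, 72.6 and 72.5 FPKM and the CR mice 55.5, 70.1 and 50.8 FPKM. All CR mice lay under all Con mice of their day. The difference was −0.13 (SE 0.13, adjusted p = 0.589) at day 25 and passed at day 30, at −0.42 (SE 0.13, adjusted p = 0.0423). The call at day 30 was lost without Con day 30 replicate 1 (adjusted p = 0.148), CR day 30 replicate 1 (adjusted p = 0.134) or CR day 30 replicate 3 (adjusted p = 0.133). Of its exon bases, 64 (4.30%) are shared with Egfl7 on the other strand, and no strand setting was given, so reads there cannot be assigned between them.

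Agpat3 (NM_053014, chr10:78271563-78351700, minus strand) ranged from 49.0 to 75.3 FPKM and the diets overlapped at both days. Its log2 differences were −0.12 (95% interval −0.37 to 0.13, adjusted p = 0.561) at day 25 and −0.029 (95% interval −0.28 to 0.22, adjusted p = 0.887) at day 30. Agpat3 was the only member tested that did not pass over both days (−0.075, adjusted p = 0.496).

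At the last acylation step Dgat2 rose and Dgat1 differed less. Dgat2 (NM_026384, chr7:99153663-99182713, minus strand) had the highest level of the 10 genes in each of the 12 libraries. It had 160, 228 and 169 FPKM in Con and 311, 334 and 267 FPKM in CR mice at day 25. At day 30 it had 219, 159 and 186 FPKM in Con and 263, 265 and 246 FPKM in CR mice. Con and CR mice did not overlap at either day. The difference was 0.72 (SE 0.15, adjusted p = 0.0130) at day 25 and 0.47 (SE 0.15, adjusted p = 0.0552) at day 30. The call at day 30 was lost without Con day 30 replicate 2 (adjusted p = 0.186) or replicate 3 (adjusted p = 0.117), or without CR day 30 replicate 1 (adjusted p = 0.147) or replicate 2 (adjusted p = 0.118).

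Dgat1 (NM_010046, chr15:76502015-76511818, minus strand) was much lower than Dgat2, with 10.2, 13.7 and 13.4 FPKM in Con and 12.2, 14.7 and 15.0 FPKM in CR mice at day 25. At day 30 it had 12.4, 10.3 and 9.43 FPKM in Con and 14.1, 13.6 and 12.6 FPKM in CR mice. The diets overlapped at day 25, and at day 30 the lowest CR mouse lay just above the highest Con mouse. The differences of 0.16 (SE 0.13, adjusted p = 0.484) and 0.31 (SE 0.13, adjusted p = 0.129) did not pass at a single day, and 0.23 passed over both days (adjusted p = 0.0651). That last call was lost when any 1 of 7 of the 12 mice was left out (adjusted p = 0.102 to 0.143): Con day 25 replicate 1, CR day 25 replicates 2 and 3, Con day 30 replicates 2 and 3, and CR day 30 replicates 1 and 2. Dgat2 made up 92.6% to 96.2% of the summed Dgat1 and Dgat2 FPKM in every library.

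Mogat1 (NM_026713, chr1:78511060-78538173, plus strand) was barely present, with 4 to 22 reads per library, and did not reach the minimum of 1 FPKM in 3 libraries. It had 0.998, 0.409 and 0.347 FPKM in Con and 0.394, 0.477 and 0.415 FPKM in CR mice at day 25. At day 30 it had 0.489, 0.392 and 0.482 FPKM in Con and 0.143, 0.215 and 0.143 FPKM in CR mice, which did not overlap. With the minimum lowered to 0.1 FPKM, the differences were −0.13 (adjusted p = 0.576) at day 25 and −0.32 (adjusted p = 0.103) at day 30, and neither passed. Over both days the difference of −0.22 passed with that minimum (adjusted p = 0.0728). Of its exon bases, 189 (16.0%) are shared with BC035947 on the other strand.

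Mttp (NM_008642, chr3:138089855-138131377, minus strand), needed to export triglyceride, was slightly lower in every CR mouse than in every Con mouse of the same day. It had 88.4, 92.5 and 91.8 FPKM in Con and 77.1, 70.7 and 82.1 FPKM in CR mice at day 25. At day 30 it had 92.3, 96.5 and 85.7 FPKM in Con and 74.9, 79.4 and 80.7 FPKM in CR mice. The log2 differences of −0.25 (SE 0.092, adjusted p = 0.120) and −0.22 (SE 0.092, adjusted p = 0.123) did not pass at a single day, and −0.23 passed over both days (adjusted p = 0.0125). Of its exon bases, 132 (3.33%) are shared with Gm43691 on the other strand.

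**Figure D4:**
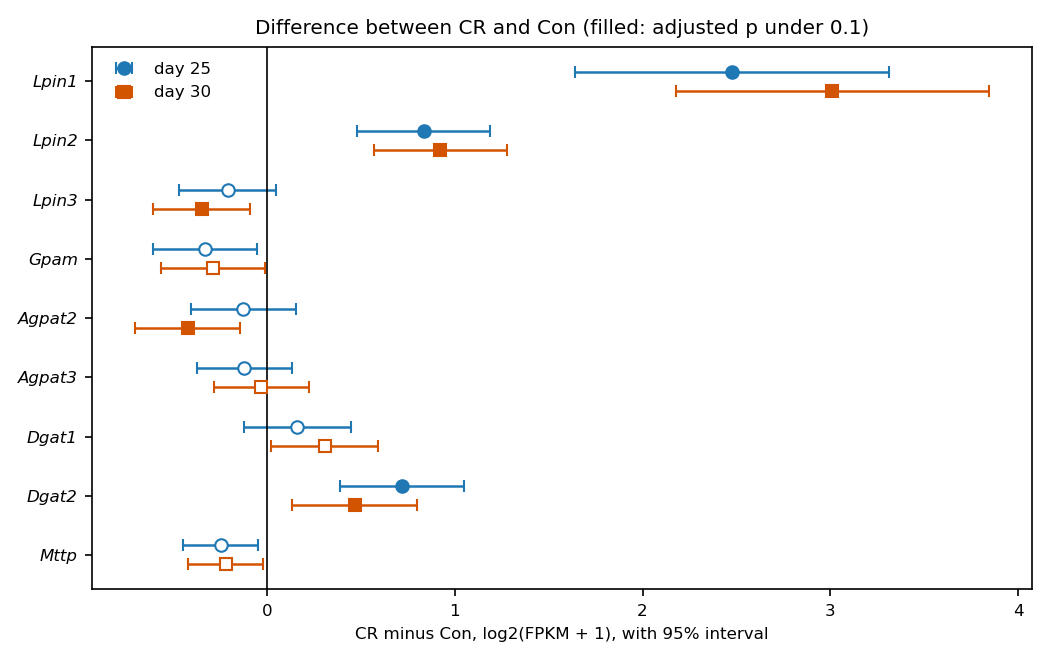
Difference between CR and Con in log2(FPKM + 1) (horizontal axis) with its 95% interval for the 9 tested genes, at day 25 (blue circles) and day 30 (orange squares), filled where the adjusted p is under 0.1. Lpin1 lies apart, at 2.47 and 3.01, and every other gene lies between −0.42 and 0.92.

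By count, 3 of the 9 tested members passed at day 25, all higher in CR (Lpin1, Lpin2 and Dgat2), where 14.9% of all 10593 genes tested passed, 5.6% as higher and 9.34% as lower. At day 30, 5 of 9 passed, Lpin1, Lpin2 and Dgat2 as higher and Lpin3 and Agpat2 as lower, where 24.7% of all genes passed, 8.33% as higher and 16.4% as lower. Over both days 8 of 9 passed, 4 in each direction, where 40.6% of all genes did, 14.5% as higher and 26.1% as lower. Lpin1, Lpin2 and Dgat2 passed as higher at both days, as did 3.65% of all genes, and no member passed as lower at both days, as did 7.24%. Only Lpin1 among the members also changed at least 2-fold, in each of these 3 comparisons, where 1.48% of genes at day 25, 2.21% at day 30 and 1.66% over both days did so. The median log2 difference of the 9 tested members was −0.12 at day 25 and −0.029 at day 30, beside −0.039 and −0.068 over all genes tested, with 4 positive and 5 negative values at each day. With no overlap between diets, 3 of the 10 members were above and 4 below Con at day 25, and 4 above and 4 below at day 30, where 28.2% (10.2% above and 18% below) and 36.4% (12.1% above and 24.3% below) of all genes tested did not overlap. The 4 below at day 30 include Mogat1, which is not among the genes tested. Lpin1, Lpin2 and Dgat2 were above at both days, as were 5.8% of all genes, and Lpin3, Agpat2 and Mttp were below at both days, as were 12.2%. The direction of calls over all genes depended on the scaling between libraries. There were 593 higher and 989 lower genes at day 25, against 929 higher and 799 lower under median-ratio scaling. The numbers for day 30 were 882 higher and 1737 lower, against 1319 higher and 1238 lower. Of the diet differences of the members, that scaling turned the sign of Agpat3 at day 30 only.

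The order of the members by level changed with diet at its upper end. Dgat2 was the first in each of the 12 libraries, and Mttp came next in each of the 6 Con libraries, whereas Lpin1 came next in each of the 6 CR libraries, followed by Lpin2. In Con mice Lpin1 was only the sixth or the seventh of the 10, beside Gpam, with which it overlapped. Mttp, at 85.7 to 96.5 FPKM, was above Agpat2, at 72.5 to 91.4 FPKM, in each Con mouse although their ranges overlapped, and Agpat3 and Lpin2 came next with ranges that overlapped too. Dgat1, Lpin3 and Mogat1 were the last in this order in every library.

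No difference between day 25 and day 30 was called for any of the 9 tested members, by limma on log2(FPKM + 1) or by voom on the recovered reads. At an unadjusted p under 0.05 there were 0 members for the difference between the CR effects, 1 within CR mice (Agpat2) and 1 within Con mice (Agpat3). The CR effect was larger at day 30 than at day 25 by 0.54 for Lpin1 (SE 0.54, 95% interval −0.64 to 1.72, adjusted p = 0.9995). For Dgat2 the difference between days was −0.25 (95% interval −0.72 to 0.22, adjusted p = 0.9995). Of all genes tested, 0.00944% passed in this comparison. Within CR mice, Agpat2 had the largest difference between days among the members, −0.45 (SE 0.13, adjusted p = 0.249), where 0.321% of genes passed. Within Con mice it was Lpin1, at −0.78 (SE 0.38, adjusted p = 0.683), where 0% of genes passed.

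At 2 steps of the pathway an isoenzyme outside the 10 genes rose at both days. Gpat4, the main microsomal glycerol-3-phosphate acyltransferase, had 41.4 to 55.9 FPKM in Con and 67.1 to 72.5 FPKM in CR mice at day 25, and 35.7 to 47.1 and 55.4 to 64.0 FPKM at day 30. It rose by 0.47 (SE 0.13, adjusted p = 0.0429) and 0.48 (SE 0.13, adjusted p = 0.0279). The ratio of Gpat4 to Gpam was 1.01 to 1.60 in Con and 1.72 to 2.80 in CR mice. Agpat1, an enzyme of the same step as Agpat2, rose by 0.47 (SE 0.14, adjusted p = 0.0599) and 0.50 (SE 0.14, adjusted p = 0.0340) from a low level of 3.27 to 4.62 FPKM in Con mice. The ratio of Agpat1 to Agpat2 was 0.0414 to 0.0614 in Con and 0.0668 to 0.128 in CR mice. Of the 11 other acyltransferases listed, 6 were tested, and these 2 were the ones that passed at either day, both higher. Of all genes tested, 3.65% passed as higher at both days.

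Around the pathway a few genes passed at both days in 1 direction, as did 10.9% of all genes tested. At a single day 14.9% (day 25) and 24.7% (day 30) of all genes tested passed in either direction. Among 4 tested genes of glycerol-3-phosphate supply, Gpd1, which makes glycerol-3-phosphate from dihydroxyacetone phosphate, fell from 123 to 187 FPKM in Con to 57.1 to 68.9 FPKM in CR mice at day 25 (−1.24, SE 0.21, adjusted p = 0.00401) and by a like amount at day 30 (−1.27, SE 0.21, adjusted p = 0.00195). Gpd1l, its paralogue in the same list, rose at day 30 (0.44, SE 0.11, adjusted p = 0.0179). Of the 13 tested genes that use phosphatidate or diacylglycerol for other lipids, Selenoi, the ethanolamine phosphotransferase, fell (−0.67 and −0.64, adjusted p = 0.00397 and 0.00303) and Pemt, which methylates phosphatidylethanolamine to phosphatidylcholine, rose (0.54 and 0.85, adjusted p = 0.0377 and 0.00248). Plpp3, a lipid phosphate phosphatase of that list, passed as lower at day 30 (−0.53, adjusted p = 0.0289). Of 9 tested regulators of lipin expression or activity, Ppargc1a, which encodes PGC-1α, rose (0.74, SE 0.24, adjusted p = 0.0772 and 1.10, SE 0.24, adjusted p = 0.00998). Its levels were 2.64 to 3.58 FPKM in Con and 3.85 to 7.34 FPKM in CR mice at day 25, and 1.79 to 3.03 and 3.90 to 8.22 FPKM at day 30, with no overlap. At day 25 Ppara also rose (0.54, adjusted p = 0.0469) and at day 30 Srebf2 fell (−0.45, adjusted p = 0.0307), and 7 of the 9 did not pass at each day. Calls of 2 of 9 at day 30 lie near the 24.7% of all genes tested that passed.

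Of 15 tested genes of VLDL assembly, Sort1, which encodes sortilin, a receptor that sorts apolipoprotein B, fell at both days (−0.83, adjusted p = 0.0413 and −1.44, adjusted p = 0.00167). At day 25 it alone of the list fell and Ces1d alone rose, where 14.9% of all genes tested passed. At day 30, where 24.7% of all genes tested passed, 2 genes of the list rose and 3 fell. The 2 that rose at day 30 were P4hb, the partner subunit of MTTP (0.55, adjusted p = 0.00499), and Sar1b (0.27, adjusted p = 0.0797), while Apob, the protein that MTTP loads, was among those that fell (−0.44, adjusted p = 0.0943). Of 7 tested genes of triglyceride hydrolysis, Lpl, the lipoprotein lipase, fell at both days (−0.85, adjusted p = 0.0598 and −1.01, adjusted p = 0.0209), and Lipe passed as lower at day 30 (−0.59, adjusted p = 0.00480). Levels of Lpl overlapped between diets at day 30. Over both days 4 of the 7 passed, where 40.6% of all genes tested did. Pnpla2 was higher (0.31, adjusted p = 0.0451), and G0s2, Lipe and Lpl were lower. Of all genes tested, 7.24% passed as lower at both days. Of 5 tested genes that supply acyl-CoA, none passed at day 25 and Acsl1 fell at day 30 (−0.91, SE 0.23, adjusted p = 0.0210). The median log2 differences of these lists at day 25 and day 30 were 0.19 and 0.090 for the other acyltransferases, −0.21 and −0.31 for glycerol-3-phosphate supply, −0.024 and 0.035 for acyl-CoA supply, −0.041 and −0.058 for the phosphatidate branch, 0.057 and −0.16 for the regulators, 0.031 and −0.0022 for VLDL assembly and −0.0041 and −0.18 for hydrolysis, beside −0.039 and −0.068 over all genes tested.

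**Figure D5:**
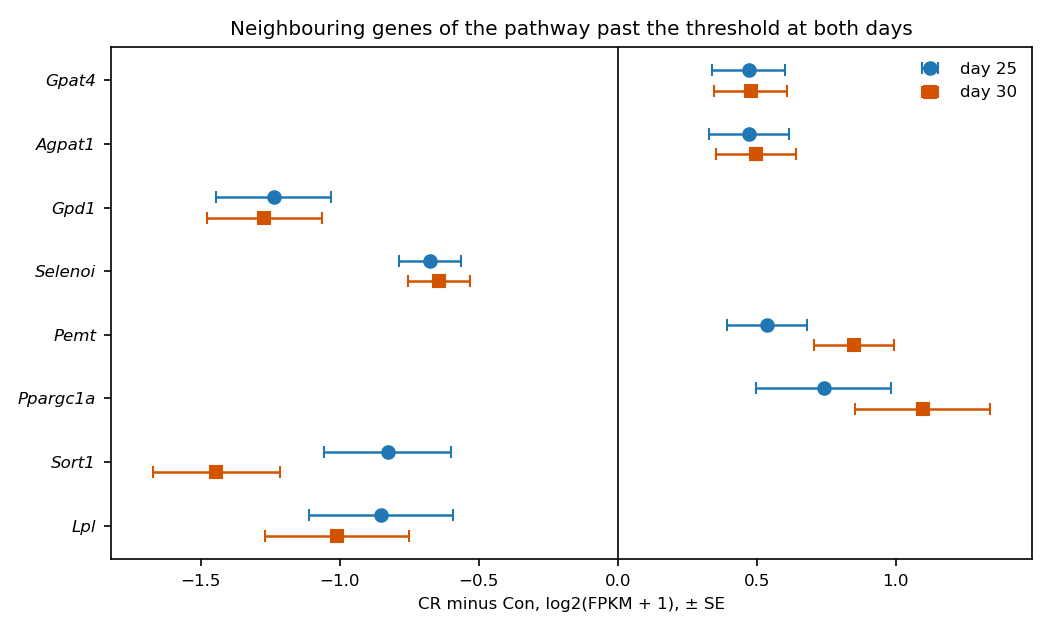
Difference between CR and Con in log2(FPKM + 1) ± SE (horizontal axis) at day 25 (blue circles) and day 30 (orange squares) for the 8 pathway genes outside the members that passed at both days. Gpat4, Agpat1, Pemt and Ppargc1a lie above 0, and Gpd1, Selenoi, Sort1 and Lpl below it, on the same side at both days. Over all genes tested, 10.9% passed at both days in 1 direction.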

How the data were processed

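Liver RNA from 12 mice was sequenced as paired-end reads on a single lane. The authors mapped the reads to mm10 with BWA, and the submitters' processing notes also name CASAVA 1.8.2, FastQC and DESeq2. The FPKM values used here were deposited by the authors, who ran HOMER on exonic reads and kept 1 transcript for each gene. The strand setting is not given in the sources used here. Because FPKM are not counts, a count model was not used as the main test. The worth of 1 read was read off the smallest FPKM steps of each library, which gave its depth and each gene's reads (100% of the low values used were whole within 0.1 read).

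The main test was limma 3.58.1 (R 4.3.3) on log2(FPKM + 1), which understates the differences of low genes. It covered 10593 genes, those that reached 1 FPKM in 3 or more libraries. The 4 groups entered 1 model, with moderated variances and a trend on expression, from which the diet difference at each day, the interaction and the change between days within a diet were taken. The diet difference over both days came from a model with day as covariate. Tests were 2-sided, and p-values were adjusted by Benjamini-Hochberg over all genes tested and called under 0.1. A second rule added an absolute log2 difference of at least 1. With 3 mice a group, each p-value set a mean difference against the spread between mice, pooled over the groups and moderated across genes. The model was tested on simulated data. Other steps used Python 3.11.15 with pandas 2.3.3, numpy 2.4.6, scipy 1.17.1 and matplotlib 3.10.9.

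The 10 members and the lists of other genes and markers were chosen with earlier results of these data known. Named were the 10 members in every comparison, the genes of each other list that were called at both days or had the largest difference of their list at day 30, and the 5 genes most like Lpin1, of which 1 is not reported here. Chosen after their values were seen were Gpd1l, Plpp3, Ppara, Srebf2, P4hb, Sar1b, Apob, Ces1d, Lipe, Pnpla2, G0s2, Alb and Apoa1, and the adipocyte genes of the library that stood apart.

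The labels of the 3 Con mice at day 30 do not tell them apart, so their replicate numbers follow the column names. At day 25, same-numbered Con and CR mice deviated together in each pair (r = 0.106 to 0.368), and at day 30 they did not reach 0.1 in every pair (r = 0.0457 to 0.181). For mice of unlike number r was −0.287 to 0.0134 at day 25. At day 30 it was −0.253 to 0.118, a range that overlaps that of the same-numbered mice. Settings varied one at a time were the pseudocount, the low-value filter, scaling, variance moderation, the samples fitted, the replicate block, voom on the recovered reads, the call rule and the removal of each mouse.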

Additional observations from a re-analysis of the deposited data

How the results depend on the processing

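The alternatives were applied to the calls of the members, and those of other named genes were not checked under them. At day 25, at day 30 and over both days, the calls of Lpin1 and Lpin2 kept their direction under every alternative. Their adjusted p stayed under 0.1 in each. The same held for the calls of Dgat2 at day 25, and of Lpin3, Gpam, Agpat2, Dgat2 and Mttp over both days. Among the members only Lpin1 also passed the 2-fold rule. The number of called members was 3 of 9 at day 25, 5 at day 30 and 8 over both days. Requiring 2-fold left 1 in each of these comparisons. At day 30 an adjusted p under 0.05 left 3, the model with only the libraries of day 30 left 3, and leaving out each mouse gave 2 to 6, with 2 without CR day 30 replicate 1 and 3 without Con day 30 replicate 3. In the model of day 30 alone Lpin3 (adjusted p = 0.111) and Agpat2 (adjusted p = 0.102) were lost, with 6 mice in the fit. The cause of the other changes was not tested. At day 30 Lpin3 was lost under quantile normalization (adjusted p = 0.118). Gained at day 30 were Dgat1 under median-ratio scaling (adjusted p = 0.0578) and quantile normalization (adjusted p = 0.0542), and Mttp with no filter (adjusted p = 0.0886) and quantile normalization (adjusted p = 0.0964), and at day 25 Mttp under the same settings (adjusted p = 0.0861 and 0.0680). On leaving out a mouse, Dgat1 at day 30 was gained without Con day 25 replicate 1 (adjusted p = 0.0854) or Con day 30 replicate 1 (adjusted p = 0.0795), and Gpam at day 30 without CR day 30 replicate 3 (adjusted p = 0.0916) and at day 25 without CR day 30 replicate 1 (adjusted p = 0.0962).

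With the replicate number as a block, 3 members passed at day 25, 6 at day 30, 8 over both days and 0 for the difference between days, and the only call that changed was Dgat1 at day 30 (adjusted p = 0.0335 in place of 0.129). The block could not be fitted for differences between days within a diet, since each block lies within 1 day.

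Of the values for single members, 13 changed sign under at least 1 alternative, and none of them belonged to a call. Median-ratio scaling gave 0.052 for Agpat3 at day 30, and −4.29e-05 for Dgat2 and −0.012 for Mttp between days in Con. The ranges on leaving out each mouse that crossed 0 were as follows. For the diet difference at day 30, Agpat3 ran from −0.076 to 0.026. For the CR effect at day 30 minus day 25, Lpin2 ran from −0.048 to 0.29, Gpam from −0.043 to 0.16, Agpat3 from −0.014 to 0.18 and Mttp from −0.031 to 0.076. Between days in CR, Lpin2 ran from −0.018 to 0.13, Dgat1 from −0.14 to 0.00067 and Mttp from −0.023 to 0.084. Between days in Con, Lpin2 ran from −0.24 to 0.090, Lpin3 from −0.019 to 0.18, Gpam from −0.0058 to 0.15, Dgat2 from −0.095 to 0.17 and Mttp from −0.031 to 0.054. Depth limits Mogat1, with 4 to 22 reads a library, and intervals from 3 mice a group limit the comparison of days.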

Other observations

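Con day 30 replicate 3 held more of the adipocyte markers Adipoq, Plin1, Cfd and Retn than any other library. It had 22 reads of Adipoq, 13 of Plin1, 68 of Cfd and 12 of Retn, and 1 read of Lep. Each of the other 11 libraries had at most 2 reads of Adipoq, 0 of Plin1, 15 of Cfd and 2 of Retn. Fabp4, which macrophages and endothelium also express, was 14.5 FPKM there and 4.54 to 10.9 FPKM elsewhere. Cidec, at 1.68 FPKM there and 0.977 to 2.86 FPKM elsewhere, and Plin4, at 1.42 and 1.16 to 11.6 FPKM, did not stand apart. In that library Lpin1 was 20.4 FPKM, between the other Con mice of day 30 (14.8 and 27.0 FPKM), Dgat2 was 186 FPKM, also between them (219 and 159 FPKM), and Lpin3 was the highest of all libraries. Without it the CR difference at day 30 was 3.02 for Lpin1 and 0.47 for Dgat2, and Dgat2 no longer passed (adjusted p = 0.117).

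Tat, the hepatocyte enzyme tyrosine aminotransferase, whose transcription is known to respond to glucocorticoids and glucagon, was higher in CR than in Con mice. A link between Tat and Lpin1 was not tested. Tat had 448 to 750 FPKM in Con and 1380 to 1904 FPKM in CR mice at day 25, and 275 to 593 and 902 to 1624 FPKM at day 30, with no overlap. The difference was 1.34 (SE 0.29, adjusted p = 0.0149) at day 25 and 1.69 (SE 0.29, adjusted p = 0.00287) at day 30 in limma. Plin4, a lipid droplet coat protein listed among the adipocyte markers, rose by 1.46 (SE 0.24, adjusted p = 0.00410) at day 25 and 0.73 (SE 0.24, adjusted p = 0.0593) at day 30, with 1.94 to 3.74 FPKM in Con and 8.29 to 11.6 FPKM in CR mice at day 25. Its levels overlapped between diets at day 30, with 1.16 to 2.93 FPKM in Con and 2.86 to 4.97 FPKM in CR mice. Of 8 Kupffer cell markers, 6 fell at day 25, where 9.34% of all genes tested passed as lower, and none fell at day 30, where 1, Marco, rose. The difference between days was called for none of the 8. Alas2, the erythroid enzyme of heme synthesis, was the 1 of 5 tested red cell genes that passed, as lower at both days (−0.69, adjusted p = 0.0667 and −1.49, adjusted p = 0.000974). Differences of all 5 were negative at day 25. At day 30, 4 of the 5 were positive, and the list median was 0.76. Of the other marker lists, 1 of 8 hepatocyte genes rose at day 25 and 4 at day 30, 1 of 7 tested stellate genes at day 25 and 4 at day 30, and 1 of 7 tested endothelial genes at day 25 and 3 at day 30, with none lower, where 5.6% of all genes tested passed as higher at day 25 and 8.33% at day 30. Reln (stellate) and Stab2 (endothelial) rose at both days, by 0.51 (adjusted p = 0.0347) and 0.40 (adjusted p = 0.0504) at day 25 and by 0.46 (adjusted p = 0.0366) and 0.36 (adjusted p = 0.0552) at day 30. The largest differences of their lists at day 30 were 0.72 for Ecm1 (stellate, adjusted p = 0.00885), 0.64 for Oit3 (endothelial, adjusted p = 0.0123), 0.79 for Marco (Kupffer, adjusted p = 0.0349), 1.41 for Apoa4 (pancreas and intestine list, adjusted p = 0.0558) and −0.31 for Sox9 (cholangiocyte, adjusted p = 0.334). Apoa4 was the only 1 of 3 tested genes of its list with a positive difference at day 30, and the list median was −0.13. None of 7 lymphocyte genes in the table reached the minimum level.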
